A study of Mus musculus with 12 samples.

Results

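The 10 tubulin isoform genes Tuba1a, Tuba1b, Tuba1c, Tuba4a, Tuba8, Tubb2a, Tubb2b, Tubb4b, Tubb5 and Tubb6 were followed in mouse hearts under acute pressure overload. They were chosen by name, as alpha- and beta-tubulin genes of the deposited table, and all 10 were among its 13552 genes. Hearts of 12 mice were compared 9 h after surgery, 3 in each of 4 groups. The WT sham and WT TAC groups were wild type, and the KI sham and KI TAC groups carried the Bcl-xL S14A knock-in, in which serine 14 of the survival protein Bcl-xL is replaced by alanine. TAC, transverse aortic constriction, loads the left ventricle by narrowing the aorta, and sham mice were operated on without it. The labels give the strain as C57BL/6 and no age or sex, and the methods state male mice of 8 to 10 weeks for TAC and sham surgery alike. The KI mice were homozygous, were made in R1 embryonic stem cells with the selection cassette removed by CMV-Cre, and were backcrossed, whereas the WT mice were purchased. Breeding source and genotype therefore cannot be told apart, and a table of values per gene does not show the mutated codon.

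Microtubules are hollow polymers of alpha- and beta-tubulin heterodimers. Mammals carry several genes for each, and the proteins differ mainly in their C-terminal tails, which bind motors and associated proteins and are modified after polymerisation. In cardiomyocytes, microtubules position organelles and mRNA, resist shortening of the sarcomere and are known to become denser in hypertrophied hearts. Newly made tubulin is folded by the chaperonin CCT and by tubulin cofactors, and free dimers trigger decay of tubulin mRNA through Ttc5, so that tubulin mRNA level and dimer supply are linked.

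Values were RPKM (reads per kilobase of exon length, per library total), so levels of different genes can be set side by side. Libraries held 23650280 to 32455620 reads on genes. A difference is given as the difference of mean log2(RPKM + 1) with its standard error, and a gene is said to have passed the test, or to be higher or lower, at a Benjamini-Hochberg adjusted p under 0.05 in limma over 11240 genes, those with 3 or more mice at or above 1 RPKM. All 10 tubulins were among them, from Tubb2b at 32 to 261 reads per library to Tuba4a at 6634 to 17032 reads. The scale understates changes of genes near 1 RPKM, such as Tubb2b. The heart label was borne out by the 8 cardiomyocyte markers, which summed to 12866 to 23034 RPKM in every mouse. WT TAC mouse 10 stood apart in 5 proliferation markers (Mki67, Top2a, Ccnb2, Ccna2 and Aurkb), which summed to 17.7 RPKM there and to 0.518 to 4.09 RPKM in the other 11 mice. It was also the highest mouse in the fibroblast markers Col1a1 (461 RPKM, 41.2 to 188 in the others), Col1a2 (60.6 RPKM, at most 19.2) and Lum (29.2 RPKM, at most 15.3) and the smooth muscle marker Acta2 (116 RPKM, at most 76.2). Of the other fibroblast markers, Pdgfra, Tcf21 and Dpt were highest there too, but Gsn was lowest (173 RPKM, 248 to 623 in the others). Dcn lay within the range of the others, and the fibroblast sum was 836 RPKM, beside 833 RPKM in WT sham mouse 1. Of the other pericyte and smooth muscle markers, Myh11, Tagln and Cnn1 were highest there, and Rgs5, Pdgfrb, Kcnj8 and Abcc9 were not. Tubb4b, Tubb5, Tubb2a, Tubb2b and Tubb3 were highest in this mouse too, and the part of these cells was not tested. Tubulin calls that changed without that mouse are given both ways.

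In WT sham hearts, the alpha-tubulin mRNA was mostly Tuba4a, at 107 ± 33.2 RPKM (SD, n = 3), and Tuba8, at 72.3 ± 6.18 RPKM. Their ranges overlapped. The 3 genes of the Tuba1 cluster on chromosome 15 lay far lower, Tuba1b at 9.34 ± 2.26 RPKM, Tuba1a at 5.6 ± 0.519 RPKM and Tuba1c at 4.6 ± 1.11 RPKM. Tuba1b lay above the other two in every mouse, and Tuba1a and Tuba1c overlapped. Among beta-tubulins, Tubb5 (51.8 ± 3.35 RPKM) and Tubb4b (50.6 ± 9.69 RPKM) overlapped at the top, followed without overlap by Tubb6 (35.1 ± 2.57 RPKM), Tubb2a (16.1 ± 0.825 RPKM) and Tubb2b (0.583 ± 0.0219 RPKM). By GENCODE M21 on GRCm38, Tuba1b (chr15:98931425-98934565, minus strand), Tuba1a (chr15:98949837-98953703, minus) and Tuba1c (chr15:99029891-99038110, plus) are neighbours, as are Tubb2a (chr13:34074274-34078007) and Tubb2b (chr13:34126748-34130466), both on the minus strand. Tuba4a lies at chr1:75214228-75219865 (minus), Tuba8 at chr6:121210696-121226854 (plus), Tubb4b at chr2:25222160-25224702 (minus) and Tubb5 at chr17:35833921-35838306 (minus). Reads were counted over the exons of each gene. Levels of near-identical genes are uncertain. Of all 75-base windows of their transcripts, the read length used, 68.2% of Tuba1a, 64.3% of Tuba1b and 48.9% of Tuba1c also occur in another gene, as do 43.2% of Tubb2a, 30.2% of Tubb2b and 27.7% of Tubb4b. How the counting treated reads that map to several genes is not given in the sources used here. No such window was shared by Tuba4a, Tuba8, Tubb5 or Tubb6.

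After TAC, all 5 beta-tubulins were higher in WT hearts, where 6.96% of all genes tested were higher and 4.6% lower. Tubb6, the class V beta-tubulin on chromosome 18, had the largest difference of the 10 genes on the log2(RPKM + 1) scale, though not in fold. It was at 36.3, 36.7 and 32.1 RPKM in WT sham mice 1, 2 and 3 and at 152, 118 and 122 RPKM in WT TAC mice 7, 9 and 10. Every TAC heart was thus well above every sham heart. The mean was 3.73-fold higher (log2 difference 1.86 ± 0.27, SE, limma adjusted p = 0.00101). Tubb2a, a class II beta-tubulin on chromosome 13, was at 15.2, 16.8 and 16.2 RPKM in sham and at 54.7, 49.8 and 59.1 RPKM in TAC hearts. Both groups were tight and far apart, 3.39-fold (1.70 ± 0.18, limma adjusted p = 0.000129). Its neighbour Tubb2b, also class II, was at 0.57, 0.608 and 0.571 RPKM in sham and at 3.25, 2.24 and 4.36 RPKM in TAC hearts. It was nearly silent without load and the groups did not overlap, with a 5.63-fold higher mean (1.41 ± 0.17, limma adjusted p = 0.000304). With a pseudocount of 0.1 its difference was 2.26 and in limma-voom 2.42, above the 1.89 and 1.90 of Tubb6. Tubb2b passed the filter on low values only through WT TAC hearts, the group where it was highest, since no sham heart and 2 of 3 KI TAC hearts reached 1 RPKM. Its call in WT hearts is thus not independent of the filter, although it also held without one.

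The 2 most abundant beta-tubulins of WT sham hearts showed the smaller and less secure differences. Tubb5, the class I isotype found in most cells, was at 47.9, 53.6 and 53.8 RPKM in WT sham and at 117, 61.3 and 147 RPKM in WT TAC hearts. WT TAC mouse 9 lay just above the sham range and the other 2 far above it. The mean was 2.1-fold higher (0.97 ± 0.27, limma adjusted p = 0.0318). That call was lost without any of WT sham mice 1, 2 and 3 (differences 0.91, 0.99 and 0.99), without WT TAC mouse 7 (0.87) or mouse 10 (0.70), at adjusted p of 0.0795 to 0.126, and in a fit of the 2 groups alone (0.0721). Tubb4b, the widely expressed class IVb isotype, was at 54.4, 57.8 and 39.6 RPKM in WT sham and at 96.4, 72.1 and 116 RPKM in WT TAC hearts. The groups did not overlap, with a 1.87-fold higher mean (0.89 ± 0.23, limma adjusted p = 0.0261). That call was lost without WT sham mouse 3 (0.72, adjusted p = 0.116), WT TAC mouse 7 (0.86, adjusted p = 0.0913) or WT TAC mouse 10 (0.73, adjusted p = 0.0694). Without WT TAC mouse 10, 5 of the 10 tubulins were higher, against 7 with it. Of all 11240 genes, 815 were higher without that mouse and 782 with it.

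The sequences before the starts of 3 beta-tubulin genes that were higher in WT TAC hearts are shown because they differ in layout. They are from RefSeq, on the minus strand of GRCm38.p6, 5′ to 3′ and ending at the base before the gene start. Capitals mark every match on either strand to the CCAAT box (CCAAT), the GC box (GGGCGG), the TATA box (TATAAA), the cAMP response element (TGACGTCA), the letters bound by NRF1 (GCGCATGC) or a heat shock element (GAANNTTC). Tubb2a, chr13:34078009-34078108, holds TGACGTCA once and TATAAA once, with GGGCGG on both sides of the former. Tubb4b, chr2:25224703-25224932, holds CCAAT 5 times, and GGGCGG once, and Tubb5, chr17:35838302-35838501, holds CCAAT 2 times within these bases.
Tubb2a: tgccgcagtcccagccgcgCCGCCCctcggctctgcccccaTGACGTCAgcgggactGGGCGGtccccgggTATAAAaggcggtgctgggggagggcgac
Tubb4b: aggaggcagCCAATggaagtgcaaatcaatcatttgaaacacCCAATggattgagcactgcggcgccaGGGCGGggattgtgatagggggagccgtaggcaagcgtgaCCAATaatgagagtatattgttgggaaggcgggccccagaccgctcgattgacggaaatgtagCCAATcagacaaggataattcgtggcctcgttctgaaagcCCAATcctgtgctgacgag
Tubb5: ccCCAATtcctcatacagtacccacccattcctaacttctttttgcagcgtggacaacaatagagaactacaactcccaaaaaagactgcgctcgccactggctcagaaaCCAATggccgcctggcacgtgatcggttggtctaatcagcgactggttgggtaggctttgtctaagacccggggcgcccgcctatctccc
Over 32851 RefSeq promoters of 300 bases, 250 before and 50 from the gene start on, 37.4% held CCAAT, 35.7% GGGCGG, 13.6% TATAAA, 1.79% TGACGTCA, 2.71% GCGCATGC and 7.86% GAANNTTC. Of the 8 tubulins with an entry, CCAAT was in 4 (Tuba1a, Tuba1c, Tubb4b and Tubb5), GGGCGG in 6, TATAAA in 2 (Tubb2a and Tubb4b) and TGACGTCA in 1 (Tubb2a). GCGCATGC and GAANNTTC were in 0 of the 8. A match is a description of the letters and not a bound site.

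Among alpha-tubulins, Tuba1b and Tuba1c were higher in WT TAC hearts, and Tuba1a and the abundant Tuba4a and Tuba8 did not pass the test. Tuba1b, a widely expressed alpha-tubulin, was at 11.6, 9.31 and 7.09 RPKM in WT sham and at 30.8, 25.4 and 41.7 RPKM in WT TAC hearts. It was 3.49-fold higher with no overlap (1.70 ± 0.37, limma adjusted p = 0.0108). Tuba1c was at 5.88, 3.99 and 3.94 RPKM in sham and at 13.2, 11.7 and 14.1 RPKM in TAC hearts. Its TAC hearts were close together and all above sham, 2.82-fold on average (1.33 ± 0.29, limma adjusted p = 0.00966). Both calls held under every alternative tried. Tuba1a, best known from developing neurons, was at 5.64, 6.1 and 5.06 RPKM in sham and at 11.2, 8.45 and 17.6 RPKM in TAC hearts. The groups did not overlap, but the difference of 0.97 ± 0.32 missed the threshold (limma adjusted p = 0.065). It passed without WT TAC mouse 9 (1.19, adjusted p = 0.045), without KI TAC mouse 7 (0.97, adjusted p = 0.0147), under median-ratio scaling of the libraries (0.92, adjusted p = 0.0469) and in the fit of the 2 groups alone (adjusted p = 0.0361).

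Tuba4a, an alpha-tubulin whose gene does not encode the terminal tyrosine, was at 143, 101 and 77.7 RPKM in WT sham and at 106, 60.5 and 136 RPKM in WT TAC hearts. The groups overlapped throughout, and the difference was -0.12 with a 95% interval of -0.74 to 0.50. Tuba8, an alpha-tubulin abundant in striated muscle, was at 78.6, 72 and 66.2 RPKM in sham and at 64.1, 50.4 and 86.4 RPKM in TAC hearts. It too overlapped, with a difference of -0.14 (95% interval -0.65 to 0.37). For both genes WT TAC mouse 9 was the lowest and WT TAC mouse 10 the highest TAC heart. In all, 7 of the 10 tubulins were higher and 0 lower in WT TAC hearts, and 8 of 10 had groups without overlap, all with TAC above sham, against 20% of all genes. Both counts include Tubb2b, which met the filter only through WT TAC hearts. The 10 genes had a median difference of 1.15, beside 0.035 over all genes.

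**Figure D1:**
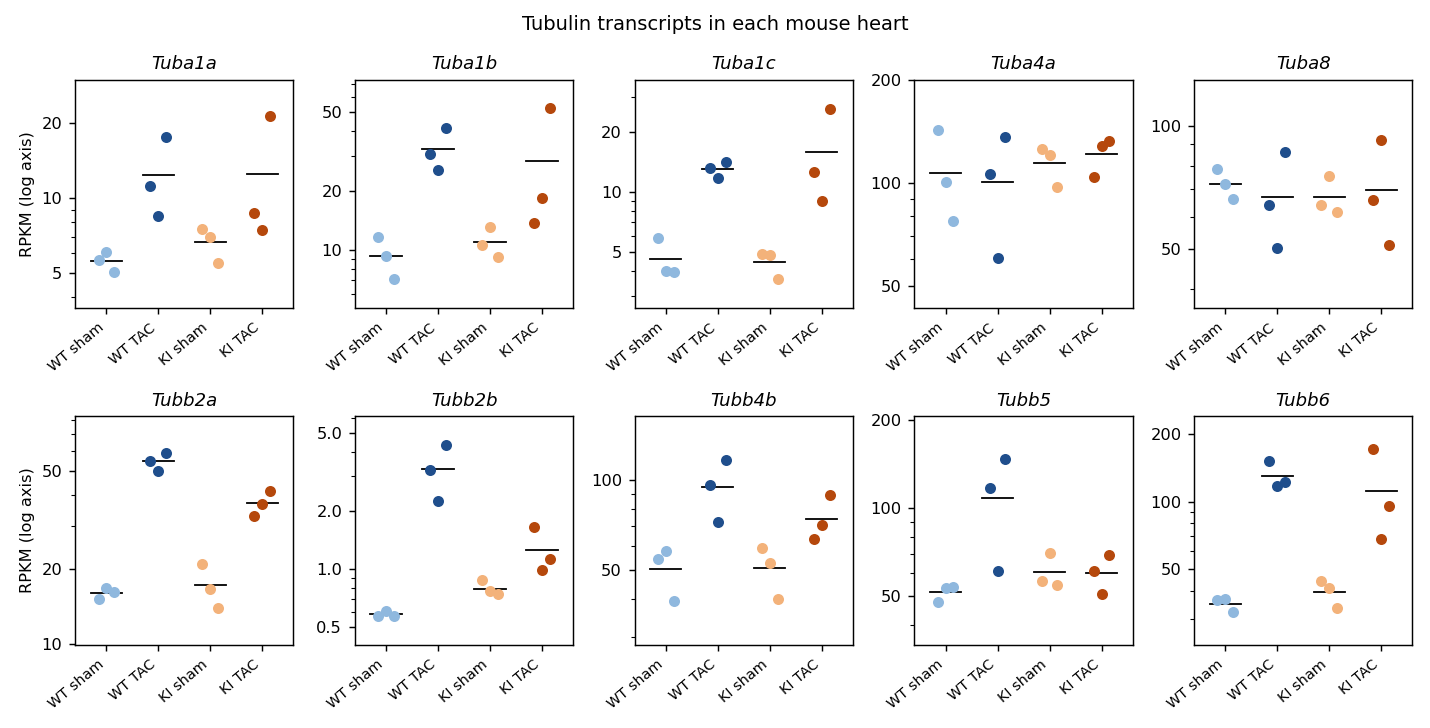
RPKM of the 10 tubulin genes in each of the 12 mice on a log axis, 1 panel per gene, with a point per mouse, in the order of the mouse numbers, and a line at the group mean. WT TAC hearts lie above all WT sham hearts for every gene but Tuba4a and Tuba8, and KI TAC mouse 7, the rightmost point of its group, is the highest of all mice for Tuba1a, Tuba1b and Tuba1c, at 21.4, 52.3 and 26.1 RPKM.

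Macrophage and neutrophil markers were also higher in WT TAC hearts. Of 8 macrophage markers, 5 were higher and 0 lower in WT TAC hearts, and their summed level went from 87.3 to 141 RPKM in WT sham to 170 to 246 RPKM in WT TAC hearts. Of the 4 neutrophil markers tested, 3 were higher, with sums of 0.751 to 1.72 RPKM in sham and 4.62 to 11.7 RPKM in TAC hearts. All 4 lay under 1 RPKM in every sham heart of both genotypes. They met the filter only through TAC hearts, so their calls are not independent of the filter. Cardiomyocyte and fibroblast markers gave 0 higher and 1 lower of 8 each, pericyte and smooth muscle markers 1 higher and 1 lower of 8, and endothelial, erythroid and Schwann cell and neuron markers 0 in either direction. The erythroid sum was nonetheless apart, at 145 to 171 RPKM in WT sham and 74.8 to 114 RPKM in WT TAC hearts, as was the Schwann cell and neuron sum, at 5.58 to 7.31 and 7.63 to 12.4 RPKM. The leukocyte gene Ptprc, the 1 lymphocyte marker in the table and not tested, was at 0.141 to 0.163 and 0.349 to 0.895 RPKM. The part of these cells in the tubulin differences was not tested, and in whole hearts fewer cells of a type and less RNA per cell cannot be told apart.

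In KI hearts, 3 of the 10 tubulins were higher after TAC and 0 lower, where 8.57% of all genes were higher and 14.7% lower. Tubb6 was at 44.2, 41.2 and 33.5 RPKM in KI sham mice 1, 2 and 3 and at 172, 68.2 and 95.4 RPKM in KI TAC mice 5, 6 and 7. All 3 TAC hearts were above sham, though mouse 5 was far above the others. The mean was 2.82-fold higher (1.38 ± 0.27, limma adjusted p = 0.0031). Tubb2a was at 21.1, 16.7 and 13.9 RPKM in KI sham and at 32.9, 36.6 and 41.4 RPKM in KI TAC hearts, 2.15-fold higher with no overlap (1.07 ± 0.18, limma adjusted p = 0.00114). Tuba1c was at 4.85, 4.81 and 3.64 RPKM in sham and at 12.5, 8.99 and 26.1 RPKM in TAC hearts. Again there was no overlap, and the mean was 3.58-fold higher (1.51 ± 0.29, limma adjusted p = 0.00237). These 3 calls held under every alternative tried.

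The other 7 tubulins did not pass the test in KI hearts. Tuba1b was at 10.6, 13.1 and 9.19 RPKM in KI sham and at 13.7, 18.4 and 52.3 RPKM in KI TAC hearts. The groups did not overlap, but mouse 5 was barely above sham and mouse 7 far above (1.07 ± 0.37, limma adjusted p = 0.0524). It passed without KI TAC mouse 5 (1.44, adjusted p = 0.0166) and without WT TAC mouse 10 (1.07, adjusted p = 0.0476). Without KI TAC mouse 7 the difference was lower, at 0.51. Tuba1a, at 7.53, 7 and 5.47 RPKM in sham and at 8.7, 7.42 and 21.4 RPKM in TAC hearts, overlapped, with only mouse 7 high (0.68 ± 0.32, limma adjusted p = 0.137). Tubb4b was at 59.4, 53 and 40 RPKM in sham and at 63.4, 70.9 and 88.7 RPKM in TAC hearts. It did not overlap and missed the threshold (0.54 ± 0.23, limma adjusted p = 0.108). Tubb2b was at 0.874, 0.766 and 0.739 RPKM in sham and at 1.65, 0.991 and 1.13 RPKM in TAC hearts, apart but by little (0.32 ± 0.17, limma adjusted p = 0.184).

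Tubb5, by mean the most abundant beta-tubulin of KI sham hearts though overlapping Tubb4b, was at 56.3, 70.2 and 54.9 RPKM in sham. In TAC hearts it was at 61, 50.8 and 69 RPKM. The groups overlapped, and the difference was -0.006 with a 95% interval of -0.58 to 0.57. Tuba4a was at 126, 121 and 97.1 RPKM in KI sham and at 104, 128 and 133 RPKM in KI TAC hearts, with a difference of 0.085 (95% interval -0.53 to 0.70). Tuba8 was at 64.1, 75.3 and 61.5 RPKM in sham and at 66, 92.4 and 51.3 RPKM in TAC hearts, with a difference of 0.026 (95% interval -0.49 to 0.54). Both overlapped, and the direction of all 3 of these genes turned in some alternatives. Of the 10 tubulins, 6 had KI TAC hearts above KI sham without overlap, against 13.6% of all genes. Their median difference was 0.61, beside -0.10 over all genes.

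Median-ratio scaling moved the median of all genes in KI TAC against KI sham from -0.10 to 0.0273, and the share of calls that were higher from 36.8% to 55%. Tuba1a (0.83, adjusted p = 0.0452), Tuba1b (1.22, adjusted p = 0.0176) and Tubb4b (0.71, adjusted p = 0.0224) then passed as well, which made 6 tubulins. With quantile normalization, Tuba1b (1.13, adjusted p = 0.0331) and Tubb2b (0.45, adjusted p = 0.0489) did, which made 5. Of all 11240 genes, 963 were higher with the values as deposited, 1556 with median-ratio scaling and 1360 with quantile normalization. In WT hearts the same scalings moved the share of higher calls from 60.2% to 50.2% and 48.1%. Of the macrophage markers, 1 was higher and 1 lower in KI TAC hearts, with sums of 94.6 to 119 RPKM in sham and 119 to 145 RPKM in TAC hearts. All 4 neutrophil markers tested were higher, from 0.573 to 0.748 RPKM to 4.78 to 22.8 RPKM, though they met the filter only through TAC hearts. Of 3 Schwann cell and neuron markers 1 was higher, with sums of 6.38 to 8.47 RPKM in sham and 10.4 to 17.1 RPKM in TAC hearts. Cardiomyocyte, fibroblast and pericyte and smooth muscle markers gave 1 lower and 0 higher of 8 each. The part of any of these cells in the tubulin values was not tested.

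Of the 10 tubulins, KI TAC against WT TAC hearts showed 1 lower and 0 higher. Both groups also enter the comparisons above. The 5 beta-tubulins had a median difference of -0.55 and the 5 alpha-tubulins one of 0.055. Tubb2b was at 1.65, 0.991 and 1.13 RPKM in KI TAC and at 3.25, 2.24 and 4.36 RPKM in WT TAC hearts. The lowest WT heart was above the highest KI heart, and the difference was -0.90 ± 0.17 (limma adjusted p = 0.00869). Because Tubb2b entered the test through its WT TAC values, this call is not independent of the filter, although it also held without one. Among all genes tested, 8.13% were lower and 2.92% higher, 11% in either direction. The call was lost without KI TAC mouse 6 (-0.82, adjusted p = 0.051) and in the fit of the 2 groups alone (adjusted p = 0.0623). Tubb2a did not overlap either, as did 19.4% of all genes with KI below WT, at 32.9 to 41.4 RPKM in KI and 49.8 to 59.1 RPKM in WT, and just missed the threshold (-0.55 ± 0.18, limma adjusted p = 0.0622). It passed without KI TAC mouse 7 (-0.63, adjusted p = 0.0439) and without KI sham mouse 1 (-0.55, adjusted p = 0.0491). Tubb5 overlapped at its ends, at 50.8 to 69 RPKM in KI and 61.3 to 147 RPKM in WT (-0.76 ± 0.27, limma adjusted p = 0.0796), and passed without WT TAC mouse 9 (-1.12, adjusted p = 0.0062).

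For the rest, KI TAC against WT TAC gave -0.33 for Tubb4b, -0.32 for Tubb6 and -0.41 for Tuba1b, at limma adjusted p of 0.352, 0.45 and 0.479. Tuba1b passed without KI TAC mouse 7 (-0.96, adjusted p = 0.0253) and was at -0.034 without KI TAC mouse 5 (adjusted p = 0.961). Tubb6 was at -0.68 without KI TAC mouse 5 (adjusted p = 0.0737) and at -0.02 without KI TAC mouse 6 (adjusted p = 0.972). Tuba1a (-0.076), Tuba8 (0.055), Tuba1c (0.14) and Tuba4a (0.34) lay closer to or above 0, and their groups overlapped. The median over all genes was -0.12 here and 0.0298 after median-ratio scaling, which left Tubb2b past the threshold and turned Tuba1a to 0.10. Of the macrophage markers, 0 were higher and 3 of 8 lower when KI TAC was set against WT TAC, and the summed ranges given above did not overlap. Cardiomyocyte markers gave 2 higher and 0 lower of 8, pericyte and smooth muscle markers 0 higher and 1 lower of 8, and erythroid markers 0 of 5, with all 5 points higher in KI TAC. Their part was again not tested. Without load, 0 of the 10 tubulins differed between KI sham and WT sham hearts in limma, 0 had an unadjusted p under 0.05, and limma-voom on reads recovered from the values also gave 0, where 0.0178% of all genes passed. Tubb2b (0.739 to 0.874 against 0.57 to 0.608 RPKM) and Tubb5 (54.9 to 70.2 against 47.9 to 53.8 RPKM) were higher in every KI sham heart without passing, at differences of 0.18 (95% interval -0.19 to 0.54) and 0.21 (95% interval -0.36 to 0.79). Groups without overlap and with KI above WT were seen in 2.08% of all genes.

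Whether the response to TAC differed by genotype was tested as the interaction, that is the KI difference minus the WT difference. With all mice, no gene passed it, tubulin or other, in limma or in limma-voom (0%), and 1668 of 11240 genes had an unadjusted p under 0.05. Of the 10 tubulins, 3 did, all beta-tubulins with the smaller difference in KI hearts. They were Tubb2b at -1.08 (95% interval -1.60 to -0.57, limma adjusted p = 0.104), Tubb5 at -0.97 (-1.78 to -0.16, limma adjusted p = 0.26) and Tubb2a at -0.63 (-1.17 to -0.081, limma adjusted p = 0.279). Tubb2b met the filter only through WT TAC hearts, so its interaction, with all mice or fewer, is not independent of the filter. Tubb6 was at -0.49 (-1.31 to 0.34) and Tubb4b at -0.34 (-1.05 to 0.37). Among alpha-tubulins, Tuba1b (-0.63) and Tuba1a (-0.29) were below 0, and Tuba1c (0.18), Tuba4a (0.20) and Tuba8 (0.17) above. The median over all genes was -0.13. Without WT TAC mouse 9, Tubb2b (-1.27, adjusted p = 0.0107) and Tubb5 (-1.33, adjusted p = 0.0348) passed, together with 240 of all 11240 genes. Without KI TAC mouse 7, 182 of all genes passed, and without WT TAC mouse 10, 8 did. These comparisons share groups, so their values are not independent of each other.

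**Figure D2:**
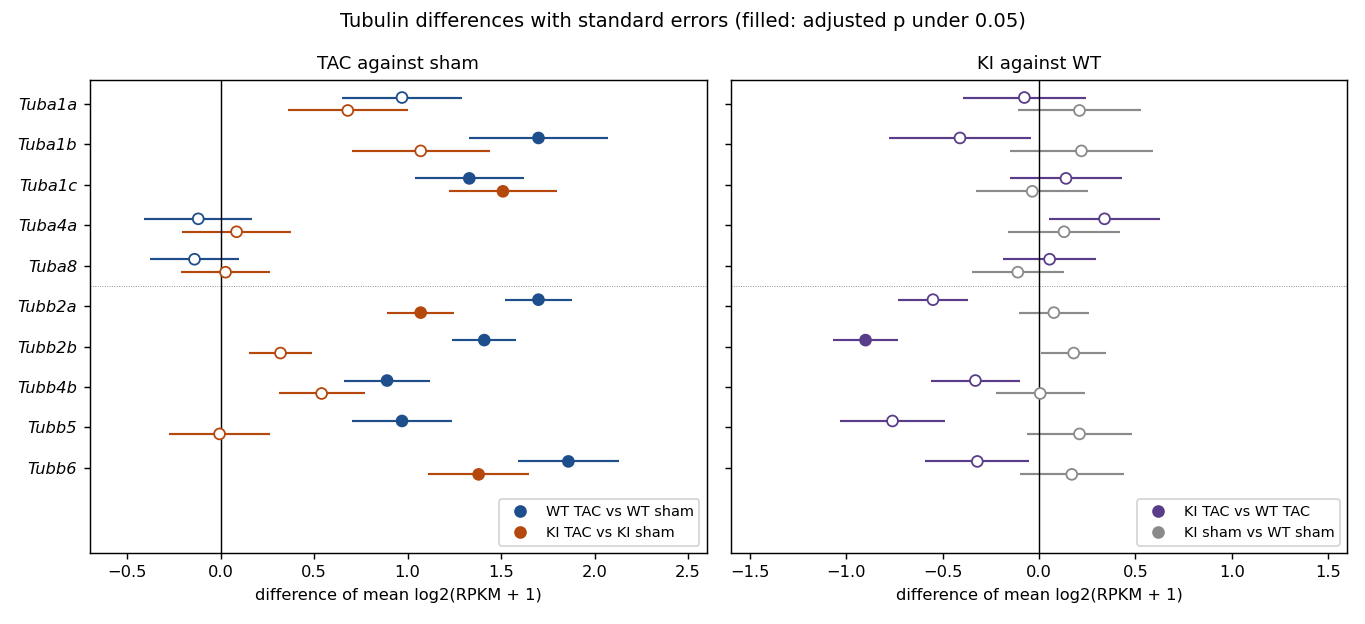
Differences of mean log2(RPKM + 1) with standard errors for the 10 tubulins, TAC against sham on the left and KI against WT on the right; filled points passed an adjusted p of 0.05 and open points did not. In WT hearts 7 points are filled on the left and in KI hearts 3, and on the right Tubb2b at -0.90 is the only filled point.

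Summed over the 5 genes, beta-tubulin mRNA went from 154, 166 and 142 RPKM in WT sham to 424, 303 and 449 RPKM in WT TAC hearts, 2.54-fold. In KI hearts it went from 182, 182 and 143 RPKM to 331, 227 and 296 RPKM, 1.69-fold. Neither pair of groups overlapped, and each gave the smallest p that an exact two-sided permutation test of 3 against 3 mice allows, 0.1. KI TAC and WT TAC hearts overlapped in this sum (exact permutation p = 0.2). The alpha-tubulin sum was at 245, 193 and 160 RPKM in WT sham and at 226, 156 and 296 RPKM in WT TAC hearts. It overlapped there (1.13-fold, exact permutation p = 0.7), and in KI hearts, at 213, 221 and 177 RPKM and 205, 255 and 284 RPKM (1.22-fold, exact permutation p = 0.3). The direction of the alpha sum in WT hearts turned without WT TAC mouse 10, from 0.16 to -0.062 as a difference of mean log2 sums. That of KI TAC against WT TAC turned without WT TAC mouse 9, from 0.17 to -0.071. Beta over alpha mRNA was 0.63 to 0.889 in WT sham and 1.52 to 1.94 in WT TAC hearts. In KI hearts it was 0.809 to 0.853 in sham and 1.61, 0.892 and 1.04 in TAC mice 5, 6 and 7, so that the spread among KI TAC hearts was wide.

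The make-up within each family also differed between TAC and sham hearts. Tuba1a, Tuba1b and Tuba1c together were 9.45% to 10.1% of the alpha sum in WT sham and 24.5% to 29.1% in WT TAC hearts. In KI hearts they were 10.3% to 11.3% in sham and 17%, 13.7% and 35.1% in TAC mice 5, 6 and 7. No TAC heart overlapped a sham heart of its genotype (exact permutation p = 0.1 in each). Tubb6 was 22.2% to 23.5% of the beta sum in WT sham and 27.3% to 38.8% in WT TAC hearts, and 22.6% to 24.3% in KI sham and 30% to 52% in KI TAC hearts. The 52% was in KI TAC mouse 5. The share of Tubb5 was lower in every KI TAC heart than in any KI sham heart, from 30.9% to 38.6% in sham to 18.4% to 23.4% in TAC. In WT hearts its share overlapped, at 31% to 37.8% and 20.2% to 32.8%. Among the KI TAC hearts, mouse 7 had the highest Tuba1a, Tuba1b and Tuba1c and the lowest Tuba8, mouse 5 the highest Tubb6 and Tubb2b, and mouse 6 the lowest Tubb6, Tubb5 and Tuba1c. Shares carry the doubt over reads of near-identical genes given above.

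**Figure D3:**
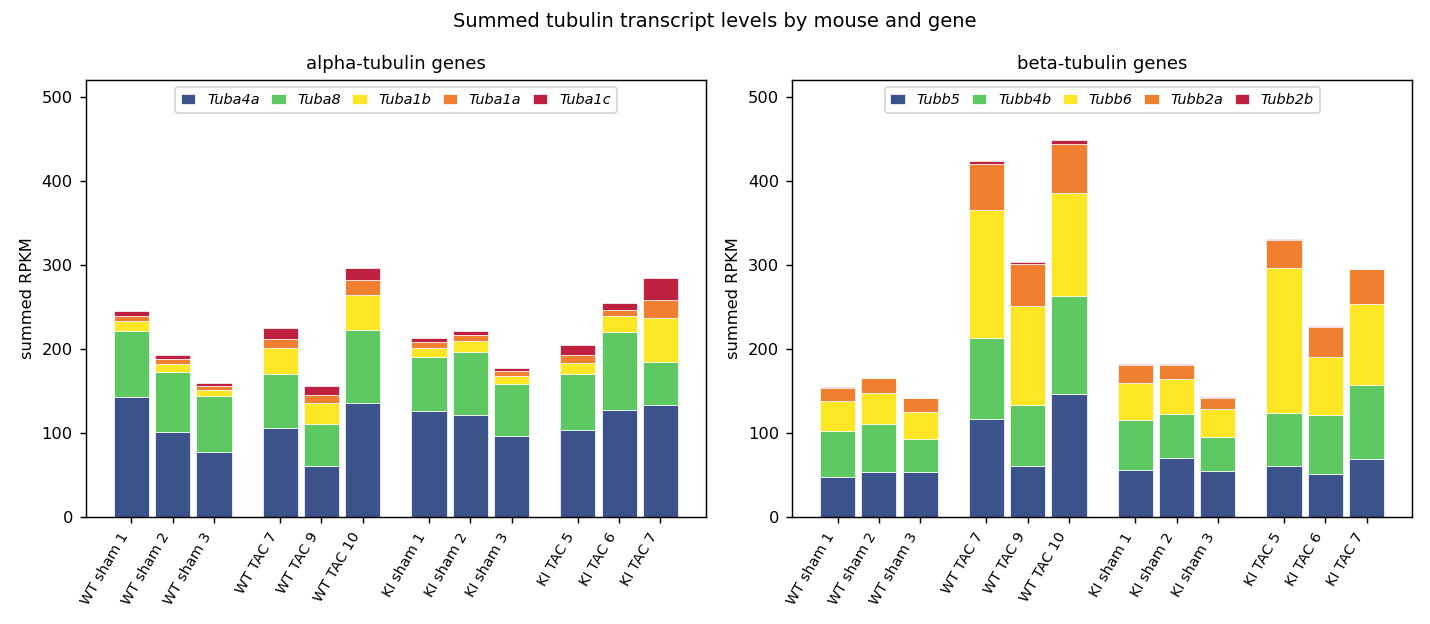
RPKM of the alpha-tubulin (left) and beta-tubulin (right) genes stacked by gene, 1 bar per mouse, on the same scale from 0. Beta sums are 142 to 166 RPKM in WT sham and 303 to 449 RPKM in WT TAC hearts and 143 to 182 RPKM in KI sham and 227 to 331 RPKM in KI TAC hearts, while alpha sums overlap.

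Of the other tubulin genes, 5 of 7 in the table were tested, and Tubb1 and Tube1 lay under the floor. Tuba3a, Tuba3b and Tubal3 were not analysed here. Tubb3, the class III isotype typical of neurons, was at 0.716, 0.407 and 0.372 RPKM in WT sham and at 4.81, 1.07 and 12.2 RPKM in WT TAC hearts. It was higher (1.86 ± 0.48, limma adjusted p = 0.0235), with a wide spread that peaked in mouse 10. Like Tubb2b, it met the filter on low values only through WT TAC hearts, since 2 of the other 9 mice reached 1 RPKM, so this call is not independent of the filter. The call was lost without WT sham mice 2 or 3 or WT TAC mice 7 or 10 (1.22 to 1.82, adjusted p = 0.0509 to 0.0759) and in the fit of the 2 groups alone. In KI hearts it was at 0.788, 1.01 and 0.759 RPKM in sham and at 0.901, 0.473 and 2.58 RPKM in TAC, which overlapped. Tubd1, delta-tubulin of the centriole, was lower in KI TAC than KI sham hearts (-0.57 ± 0.18, limma adjusted p = 0.036), at means of 1.21 and 2.28 RPKM. That call was lost under both other scalings and without any of 8 mice, WT sham 3, WT TAC 7, KI sham 1, 2 and 3 and KI TAC 5, 6 and 7 (-0.64 to -0.48, adjusted p = 0.0501 to 0.0988). Gamma-tubulin Tubg1, which nucleates microtubules, passed in neither genotype.

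Genes for the folding of new tubulin were higher in part. Of 15 genes of the chaperonin CCT and its partner prefoldin, 3 were higher in WT TAC hearts (median 0.28) and 6 in KI TAC hearts (median 0.46), and 0 were lower in either. Over all genes, 6.96% were higher in WT (median 0.035) and 8.57% in KI hearts (median -0.10). The CCT subunit Cct6a went from 9.33 ± 0.809 to 16.2 ± 0.911 RPKM in WT (0.74 ± 0.15, limma adjusted p = 0.00766) and from 9.94 ± 1.22 to 17 ± 0.769 RPKM in KI hearts (0.72 ± 0.15, limma adjusted p = 0.00424). Cct8 went from 15.6 to 25.7 RPKM in WT and from 16.3 to 27.8 RPKM in KI hearts (0.66 and 0.73, limma adjusted p = 0.0299 and 0.011). Its WT call was lost without any of WT sham mice 1, 2 and 3, WT TAC mice 7 and 10 or KI sham mouse 3 (0.48 to 0.74, adjusted p = 0.0508 to 0.0951). Cct3 was higher in WT (0.66, limma adjusted p = 0.027), but not without WT sham mice 2 or 3 or WT TAC mice 7 or 10 (0.57 to 0.64, adjusted p = 0.0587 to 0.116). In KI hearts Cct2 (0.70) and the prefoldin subunit Pfdn2 (0.71) were higher too, at limma adjusted p of 0.00973 and 0.0315. Cct2 lost its call without KI sham mouse 3 (0.65, adjusted p = 0.0517) and Pfdn2 without KI sham mice 1 or 3 or KI TAC mice 6 or 7 (0.53 to 0.68, adjusted p = 0.0817 to 0.121). Of 8 tubulin cofactor and autoregulation genes, Ttc5 among them, 0 passed in either genotype in limma or limma-voom, with 0 and 1 at an unadjusted p under 0.05.

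Enzymes that set the tubulin tail tyrosine and acetyl marks did not pass the test. Of 6 tested, 0 passed in WT or KI hearts or in KI TAC against WT TAC, in limma or limma-voom, with 1, 2 and 3 at an unadjusted p under 0.05. Over all 11240 genes, 11.6%, 23.3% and 11% passed, and 3135, 4140 and 3408 had an unadjusted p under 0.05. Vash1, which with Svbp removes the terminal tyrosine, was at 12.6 to 18.2 RPKM in WT sham and 12.5 to 23 RPKM in WT TAC hearts. Ttl, the ligase that restores it, was at 7.91 to 8.97 and 6.5 to 11.1 RPKM. Both overlapped. Ttl was at 7.13 to 8.62 RPKM in KI sham and 5.47 to 5.8 RPKM in KI TAC hearts, apart but not past the threshold (limma adjusted p = 0.0816). Vash2 lay under the floor, and Matcap1 was not analysed here.

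Among 10 glutamylation and glycylation genes tested, Ttll11 and Ttll1 differed in opposite directions. Ttll11, a polyglutamylase, went from 6.56 ± 1.18 to 21.7 ± 13.2 RPKM in WT (1.39 ± 0.39, limma adjusted p = 0.0343) and from 6.27 ± 1.8 to 34.8 ± 10.1 RPKM in KI hearts (2.28 ± 0.39, limma adjusted p = 0.00127). The KI call held under every alternative tried. The WT call was lost without any of WT sham mice 1, 2 and 3 or WT TAC mice 7 and 9 (0.96 to 1.50, adjusted p = 0.0594 to 0.124), under median-ratio scaling and in the fit of the 2 groups alone. Ttll1, the catalytic subunit of another polyglutamylase complex, went from 21.8 ± 6.91 to 7.21 ± 2.82 RPKM in WT (-1.49 ± 0.29, limma adjusted p = 0.00566) and from 19.9 ± 5.32 to 9.09 ± 2.34 RPKM in KI hearts (-1.04 ± 0.29, limma adjusted p = 0.0203). Its KI call was lost without KI sham mice 2 or 3 or KI TAC mouse 7 (-1.01 to -0.84, adjusted p = 0.0683 to 0.0778). In KI hearts 4 of the 10 were lower, among them Ttll1, Tpgs1, a subunit of the same complex (-0.66, limma adjusted p = 0.0483), and Agbl5, a deglutamylase (-0.53, limma adjusted p = 0.0149). Over all genes, 14.7% were lower in KI TAC hearts, with a median difference of -0.10. Agbl5 lost its call without KI sham mice 1 or 3 (-0.51 to -0.47, adjusted p = 0.0502 to 0.0608), and Tpgs1 without any of 9 mice, WT sham 1, 2 and 3, WT TAC 7 and 9, KI sham 2 and 3 and KI TAC 5 and 6 (-0.74 to -0.41, adjusted p = 0.0505 to 0.18), under median-ratio scaling (-0.50, adjusted p = 0.0856) and without the filter (-0.66, adjusted p = 0.0511). Against WT TAC hearts, KI TAC hearts had lower Ttll12 (-0.99, limma adjusted p = 0.0208), but not without WT TAC mice 7 or 10 or KI TAC mouse 6 (-0.93 to -0.78, adjusted p = 0.0586 to 0.105). Ttll6, Ttll8, Ttll9, Ttll10, Ttll13 and Agbl4 were not analysed here, and Ttll3, Agbl2 and Agbl3 lay under the floor.

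Of the genes for proteins that bind the lattice or its ends, 1 was higher in WT TAC hearts. Map1b, a lattice-binding protein best known from growing axons, was the only one of 13 lattice genes that passed, from 1.06 ± 0.296 to 2.99 ± 0.456 RPKM (0.96 ± 0.21, limma adjusted p = 0.00991). Of 12 plus-end genes, 0 passed in limma and 1 in limma-voom, with 4 at an unadjusted p under 0.05. Over all genes, 6.96% were higher and 4.6% lower in WT TAC hearts. In KI hearts Map7d1, which recruits kinesin to the lattice, went from 345 ± 7.95 to 156 ± 48.3 RPKM (-1.18 ± 0.24, limma adjusted p = 0.00379). The plus-end stabilisers Clasp1 (26.7 ± 9.82 to 10.2 ± 3.91 RPKM; -1.30 ± 0.27, limma adjusted p = 0.00395) and Clasp2 (-0.94 ± 0.21, limma adjusted p = 0.00666) were lower, and these 3 calls held without each mouse. Mapt (-0.68), the lattice-binding protein tau, was also lower and the plus-end genes Slain2 (0.80) and Mapre1 (0.52), which encodes EB1, were higher in KI TAC hearts, at limma adjusted p of 0.0217, 0.0224 and 0.0253. Mapt lost its call without KI sham mice 2 or 3 or KI TAC mouse 7 (-0.71 to -0.57, adjusted p = 0.0557 to 0.0617) and under median-ratio scaling (-0.52, adjusted p = 0.0995), Slain2 without KI sham mice 2 or 3 or KI TAC mice 5 or 6 (0.64 to 0.84, adjusted p = 0.058 to 0.0877), and Mapre1 without KI sham mice 2 or 3 or KI TAC mice 6 or 7 (0.49 to 0.53, adjusted p = 0.0524 to 0.101). In KI TAC against WT TAC, Clasp1 (-1.25, limma adjusted p = 0.0153) and the lattice gene Mtus1 (-0.91, limma adjusted p = 0.032) were lower. Clasp1 lost this call without WT TAC mouse 7 or KI TAC mouse 6 (-1.24 to -1.15, adjusted p = 0.0699 to 0.0756), and Mtus1 without WT TAC mice 7 or 10 or KI TAC mice 5 or 6 (-0.98 to -0.65, adjusted p = 0.0901 to 0.104).

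Of 13 genes of the gamma-tubulin ring and centrosome, Pcnt, the scaffold pericentrin, was lower in both genotypes. It went from 11.1 ± 0.977 to 5.95 ± 0.886 RPKM in WT (-0.80 ± 0.19, limma adjusted p = 0.0163) and from 9.81 ± 2.05 to 4.53 ± 1.02 RPKM in KI hearts (-0.97 ± 0.19, limma adjusted p = 0.00319). The WT call was lost without WT sham mouse 3 or WT TAC mouse 7 (-0.74 in each, adjusted p = 0.0703 and 0.0755). Tubgcp6, a ring subunit, was lower in KI hearts (-0.55, limma adjusted p = 0.0247), but not without KI sham mice 1 or 3 or KI TAC mice 5 or 6 (-0.52 to -0.46, adjusted p = 0.0681 to 0.114). Of 6 severing and depolymerising genes tested, 0 passed in limma or limma-voom in either genotype, with 0 in WT and 2 in KI hearts at an unadjusted p under 0.05. Fignl1, Stmn3, Stmn4, Kif2b, Kif2c, Kif18a and Kif19a of that list were not analysed here, and Fign and Stmn2 lay under the floor, as did Tubgcp5, Cdk5rap2 and the lattice gene Map2. Of 15 kinesin-1 and dynein genes, Kif5b, the main kinesin-1 motor of most cells, went from 13 ± 4.31 to 29 ± 1.94 RPKM in WT hearts (1.15 ± 0.23, limma adjusted p = 0.00601). The dynein light intermediate chain Dync1li1 went from 14.7 ± 0.943 to 28.4 ± 4.86 RPKM in KI hearts (0.89 ± 0.19, limma adjusted p = 0.00453). Kif5a and Kif5c lay under the floor, and Klc3, Dync1i1 and Dynlt1b were not analysed here. Over all these lists, 9 of 101 genes passed in WT hearts and 21 in KI hearts, near the 11.6% and 23.3% of all genes that passed in either direction. For the tubulins, with 7 of 10 called in WT and 3 of 10 in KI hearts and 0 lower, the shares of all genes that were higher were 6.96% and 8.57%. The 7 include Tubb2b, and the 9 WT calls of the lists include Tubb3, which both met the filter only through WT TAC hearts. Under median-ratio scaling, WT and KI counts for the 101 genes were 9 and 27, beside 1450 and 2827 of all 11240 genes. Without each mouse in turn, 4 of the 9 and 8 of the 21 calls held. In the fit of the 2 groups alone, 3 calls were lost in WT (Tubb3, Cct8 and Ttll11), 7 in KI (Cct3, Cct5, Pfdn2, Tpgs1, Slain2, Mapre1 and Tubgcp6) and 2 in KI TAC against WT TAC (Ttll12 and Mtus1). Cct3 and Cct5 in KI are named here after their values were seen.

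**Figure D4:**
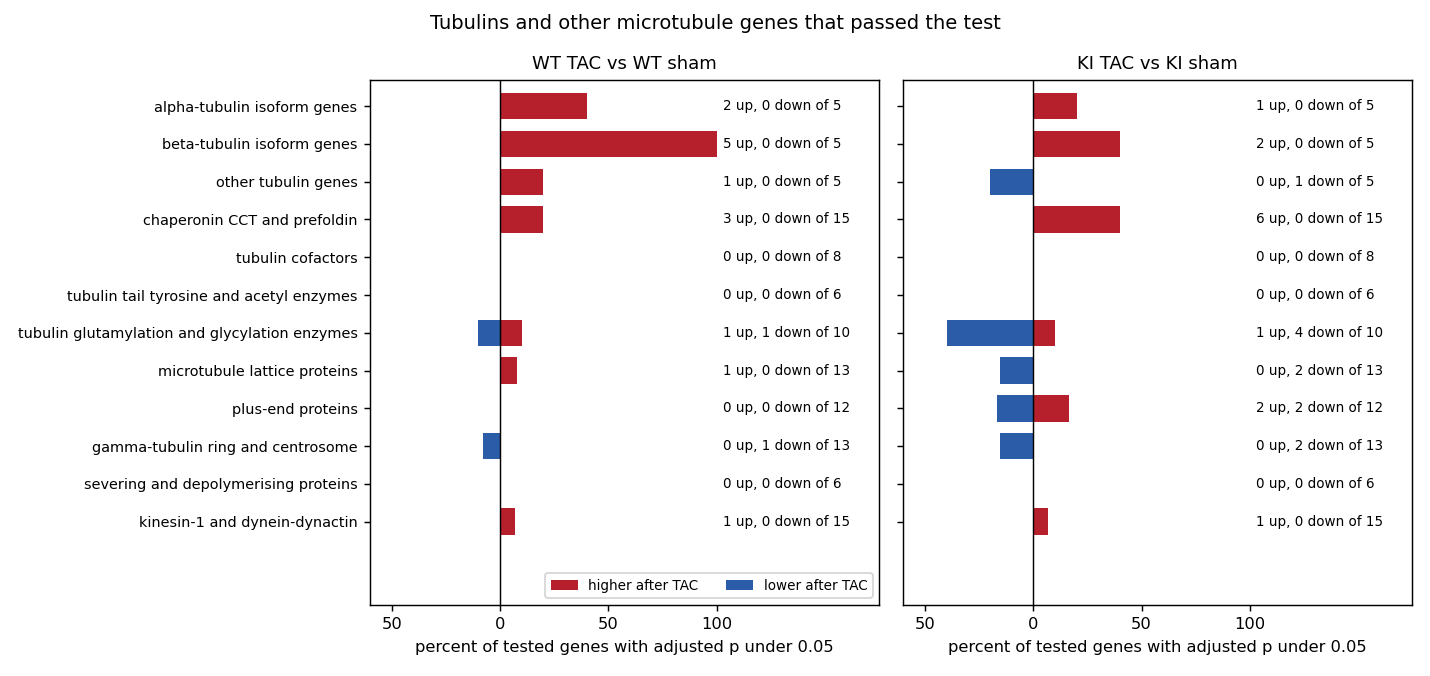
Percent of the tested genes of each list that were higher (right of 0) or lower (left of 0) after TAC at an adjusted p under 0.05, in WT (left panel) and KI hearts (right panel), with the counts at the side. Beta-tubulins reach 5 of 5 in WT and 2 of 5 in KI hearts, and the chaperonin list 3 and 6 of 15, with none of these lists' genes lower.

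The genes whose profile over the 12 mice was most like that of the 7 tubulins higher after TAC were Psat1, S100a4, Cd68, Anxa2, Itgb2 and Alox5ap. Likeness was the root mean square difference of log2(RPKM + 1), each gene centred on its own mean, from the mean profile of the 7 tubulins, and low values favour genes of the same amplitude. It was 0.15 for Psat1, an enzyme of serine synthesis, 0.16 for S100a4, a calcium-binding protein, and 0.16 for Cd68, a macrophage marker. For Anxa2, an annexin, it was 0.17, and for Itgb2, a leukocyte integrin, and Alox5ap, of leukotriene synthesis, it was 0.18. The median over 10582 candidate genes was 0.66, and the 7 tubulins themselves lay at 0.20 to 0.39. Since these 7 were chosen for being higher after TAC in these mice, the separation of TAC from sham in their mean profile is fixed by the choice and is a description. The mean tubulin profile was -0.75 to -0.53 in WT sham, 0.47 to 1.03 in WT TAC, -0.71 to -0.40 in KI sham and 0.047 to 0.68 in KI TAC hearts. The TAC hearts of both genotypes overlapped.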

How the data were processed

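Poly(A) RNA of 12 hearts was sequenced with 75-base single reads, although the library is called paired-end in the labels. From the processing notes and methods, the authors used Trimmomatic 0.39, HISAT2 2.2.1 on GRCm38, HTSeq 0.6.1, edgeR 3.18.1, limma 3.32.10 and R 4.1.1, and deposited 1 value per gene and mouse. The unit is not named. The deposited values fit RPKM, since multiplied by exon length (GENCODE M21, 13546 of 13552 genes matched) they summed to 997702 to 1002226 per mouse, and 96% to 98.2% of low values were whole reads within 0.05 reads. The methods name an Ensembl release that differs from that of the annotation files they name. No column of unknown sample was present.

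Members and gene lists were chosen with earlier results of these data known. Genes with 3 or more mice at or above 1 RPKM (11240) were tested as log2(RPKM + 1) with limma 3.58.1 in R 4.3.3, in 1 model of the 4 groups, with Benjamini-Hochberg adjustment and a threshold of 0.05. Mice of a group are separate animals and correlated at r of 0.946 to 0.991 across genes. Sums and shares were compared by an exact two-sided permutation test. All members were named. Of each other list, at most 4 genes were, those past the threshold with the largest absolute difference in the comparison described. Untested members were named too, as were the 6 genes nearest to the mean profile of the tubulins higher after TAC in either genotype, predicted genes and pseudogenes passed over. Tubg1, Ttc5, Vash1, Svbp and Ttl were named by their role, after their values were seen. Alternatives were a pseudocount of 0.1, no filter, median-ratio scaling, quantile normalization, limma-voom on recovered reads, an adjusted p of 0.10, a log2 difference of at least 1, the 2 groups alone, each mouse left out, and a replicate block in sham hearts. Scripts were tested on simulated data. Python 3.11.15, numpy 2.4.6, pandas 2.3.3, scipy 1.17.1 and matplotlib 3.10.9 were used.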

Additional observations from a re-analysis of the deposited data

How the results depend on the processing

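In WT TAC against WT sham hearts, Tubb6, Tubb2a, Tubb2b, Tuba1b and Tuba1c kept their calls under all 20 alternatives. In KI TAC against KI sham, 6 tubulins were higher with median-ratio scaling and 5 with quantile normalization (1556 and 1360 of all 11240 genes). In KI TAC against WT TAC hearts, 3 passed at an adjusted p of 0.10, as did 2293 of all 11240 genes, 0 with a log2 difference of at least 1 and 0 in the fit of the 2 groups alone, where the count over all genes went from 1242 to 216. For the 101 genes of the other lists, a log2 difference of at least 1 left 4 in WT, 4 in KI and 1 in KI TAC against WT TAC, where the count was 8 with median-ratio scaling, 7 with quantile normalization, 16 at an adjusted p of 0.10 and 1 with the 2 groups alone. Of all 11240 genes, a log2 difference of at least 1 left 486, 848 and 410. In KI TAC against WT TAC, 1286 of all genes passed with median-ratio scaling and 1136 with quantile normalization. With 1 mouse left out, these lists gave 4 to 11 in WT, 8 to 26 in KI, 0 to 14 in KI TAC against WT TAC and 0 to 3 in the interaction, and the tubulins gave 0 to 3 in KI TAC against WT TAC and 0 to 2 in the interaction. All genes gave 596 to 1525 in WT, 1453 to 2981 in KI, 162 to 1822 in KI TAC against WT TAC and 0 to 240 in the interaction. Differences that turned with scaling were small. Median-ratio scaling gave 0.16 for Tubb5 in KI, 0.10 for Tuba1a in KI TAC against WT TAC and -0.0066 for Tubb4b in sham, and quantile normalization gave -0.00052 for Tuba8 in KI, and 0.0027 for Tuba1a and -0.007 for Tuba8 in KI TAC against WT TAC. Others turned with 1 mouse left out. In WT, Tuba4a ranged from -0.37 to 0.21 and Tuba8 from -0.34 to 0.045. In KI, Tuba4a ranged from -0.03 to 0.19, Tuba8 from -0.19 to 0.23 and Tubb5 from -0.11 to 0.11. In KI TAC against WT TAC, Tuba1a ranged from -0.51 to 0.19, Tuba1c from -0.27 to 0.45 and Tuba8 from -0.16 to 0.25. In sham hearts, Tuba1c ranged from -0.12 to 0.12, Tuba4a from -0.077 to 0.36, Tubb2a from -0.072 to 0.21 and Tubb4b from -0.16 to 0.17. In the interaction, Tuba1c ranged from -0.23 to 0.49, Tuba4a from -0.12 to 0.46 and Tuba8 from -0.054 to 0.36. The alpha sum ranged from -0.062 to 0.40 in WT, from -0.071 to 0.39 in KI TAC against WT TAC and from -0.10 to 0.21 in sham. The cause was not tested for any of these. A replicate block was possible in sham hearts alone, where it gave 0 tubulins, and same-numbered mice had correlations of -0.225, -0.302 and 0.44, so the numbers do not pair the mice.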
